A study of Mus musculus with 9 samples.

Results

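The clustered histone genes are the genes whose mouse symbols begin with Hist1h, Hist2h, Hist3h or Hist4h, and they were taken by that name alone. In GENCODE M21, an annotation of the GRCm38 build, 70 genes carry such a name, and 68 of them had a row among the 46078 gene rows of each library; Hist1h2bh and Hist1h2bm were not analysed here. The 68 genes comprise 6 for the linker histone H1 and 20, 17, 12 and 13 for the core histones H2A, H2B, H3 and H4, and 3 of them (Hist1h2aj, Hist1h2al and Hist3h2bb-ps) are annotated as pseudogenes. They lie in 2 blocks on chromosome 13 (23 genes between 21715763 and 22043676, and 30 between 23531050 and 23934851), with 1 more gene apart on that chromosome, 10 on chromosome 3, 3 on chromosome 11 and 1 on chromosome 6.

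RNA was sequenced from EGFP-SSCs, a single line of mouse spermatogonial stem cells of genotype WT, at 3 times with 3 libraries labelled as biological replicates at each. At 0 h the cells were in normal culture on feeder fibroblasts treated with mitomycin C, in medium holding GDNF, bFGF and EGF. At 24 h and 48 h they had been kept together with an equal number of testicular somatic cells from 3 to 7 dpp mice that had received busulfan, in α-MEM with KSR, BMP-4/7, retinoic acid, activin A, testosterone, FSH and BPE, and EGFP-positive cells had been sorted by flow cytometry. Medium, companion cells and time therefore differ together between 0 h and the later times and cannot be told apart, and p-values measure the spread between libraries of 1 line.

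Histones are the proteins around which DNA is wound, and the clustered genes supply most of the new histone that a cell needs while it copies its DNA in S phase. Their mRNAs are known for ending not in a poly(A) tail but in a short stem-loop, which is bound by the stem-loop binding protein SLBP and cut by a complex built on the U7 snRNP. The libraries were made from mRNA caught on poly-T beads and sequenced from random primers, so the reads of these genes come from the part of their transcripts that was retained there and are not a measure of total histone mRNA.

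A stem-loop of 16 bases (a 6-base stem paired around a 4-base loop) was found in an annotated transcript of 42 of the 68 genes (61.8%), between 21 and 58 bases after the stop codon, and in the longest transcript of 30 of 45075 other genes (0.0666%). The sequences below, read from the GENCODE transcripts on the strand of each gene, are those of some of the genes called later. Among genes with no stem-loop found, 3 of 15 tested were called higher at 48 h against 0 h and 3 of 14 at 48 h against 24 h. Of all genes tested, 13% and 8.61% were called higher in these comparisons. In each sequence the stem-loop is in capitals and up to 5 neighbouring bases are in lower case. The search fixed part of the element (GG, TTT, A and CC at set places) and required a fully paired stem. The likeness of the elements between classes is therefore partly set by the search, and other forms would be missed.
Hist1h1c, chr13:23739512-23739527, plus strand: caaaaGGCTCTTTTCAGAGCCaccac
Hist1h2be, chr13:23585531-23585546, minus strand: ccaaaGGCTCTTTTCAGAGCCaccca
Hist1h3c, chr13:23745047-23745062, minus strand: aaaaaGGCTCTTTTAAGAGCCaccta
Hist1h3e, chr13:23561903-23561918, minus strand: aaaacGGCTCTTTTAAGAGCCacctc
Hist1h4d, chr13:23581950-23581965, plus strand: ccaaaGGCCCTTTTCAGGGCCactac
Hist1h4j, chr13:21735437-21735452, plus strand: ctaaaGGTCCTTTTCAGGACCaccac
Hist1h4m, chr13:21812129-21812144, plus strand: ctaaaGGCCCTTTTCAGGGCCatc
The form shown for Hist1h1c was the commonest, in 24 genes, and the form of Hist1h4m was found in 7, all of them H4 genes. In the other 26 genes no stem-loop was found, and 17 of these have annotated transcripts that stop at or near the stop codon and so could not show one. In 21 genes an annotated transcript ran at least 100 bases past the stem-loop, as in Hist1h3e (369 bases), Hist1h4d (770 bases) and Hist1h1c (840 bases).

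Reads on the histone genes were few. They made up 0.0178% to 0.0279% of the 16825251 to 22201892 counts per library, and Hist1h3e alone supplied 51.8% to 64.7% of them. In CPM (counts relative to the TMM-scaled size of the library), 38 of the 68 genes had a mean over the 9 libraries under 1 CPM, 27 lay between 1 and 5 CPM, Hist1h3d and Hist1h1c lay between 5 and 10 CPM, and Hist1h3e alone lay above. 6 genes on chromosome 3 (Hist2h2aa1, Hist2h2aa2, Hist2h2ab, Hist2h2bb, Hist2h3b and Hist2h3c1) had no count in any library. Other annotated genes covered 100% of the exons of 5 of these and 68.2% of those of Hist2h2ab, and no other histone gene was covered in full; what such overlap did to the counts was not tested.

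Several genes also share sequence, so that reads could be split between them. At least 50% of the longest transcript lay in 75-base windows with 97% or more identity to another gene in 48 of the 68 genes. The 13 H4 genes encode 1 protein, and translation of the annotated coding sequences put Hist1h3a, Hist1h3g, Hist1h3h and Hist1h3i in a group (the H3.1 form) that differs by 1 residue from Hist1h3b, Hist1h3c, Hist1h3d, Hist1h3e, Hist1h3f, Hist2h3b and Hist2h3c2 (the H3.2 form). How the authors' counting treated reads with several matches is not given in the sources used here, and levels of single genes with near-identical copies are uncertain for that reason.

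Promoters differed between classes in a way that the choice by name did not use. Of the 59 histone genes with a RefSeq promoter (GRCm38.p6, 250 bases before to 50 after the start), the octamer ATTTGCAT, searched on both strands, was found in 7 of 17 H2A and 5 of 14 H2B promoters and in none of those of H1, H3 and H4, against 1.7% of all other promoters. The letters CCAAT were present in all 47 promoters of H1, H2A, H2B and H3 and in 3 of the 12 of H4, against 37.3% of the others. TATAAA was present in 35 of the 59 (59.3%) and in 13.5% of the others.

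The class sums are described first, as levels without a test. H3 stood far above the other classes, and its sum was 144 ± 16 CPM at 0 h, 157 ± 5.30 CPM at 24 h and 192 ± 11.5 CPM at 48 h (SD, n = 3). Without Hist1h3e the H3 sum was 29.9 ± 2.94, 27.0 ± 4.07 and 30.7 ± 2.66 CPM, and the libraries of the 3 times overlapped. The H4 sum was 14.4 ± 4.84 CPM at 0 h, 12.0 ± 1.57 CPM at 24 h and 19.1 ± 1.59 CPM at 48 h. Its 48 h libraries overlapped with 0 h, where replicate 3 (18.2 CPM) stood above 48 h replicate 3 (18.1 CPM). The H1 sum was 12.1 ± 1.11, 10.5 ± 0.320 and 15 ± 1.31 CPM, and each 48 h library stood above each library of the other times. H2B gave 22.5 ± 3.65, 18.2 ± 0.274 and 24.4 ± 4.58 CPM. H2A gave 14.1 ± 4.31, 12.6 ± 1.2 and 12.1 ± 0.523 CPM, and the libraries of all times overlapped. Over all 68 genes the sum ran from 188 to 230 CPM at 0 h, from 205 to 218 CPM at 24 h and from 250 to 278 CPM at 48 h.

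**Figure D1:**
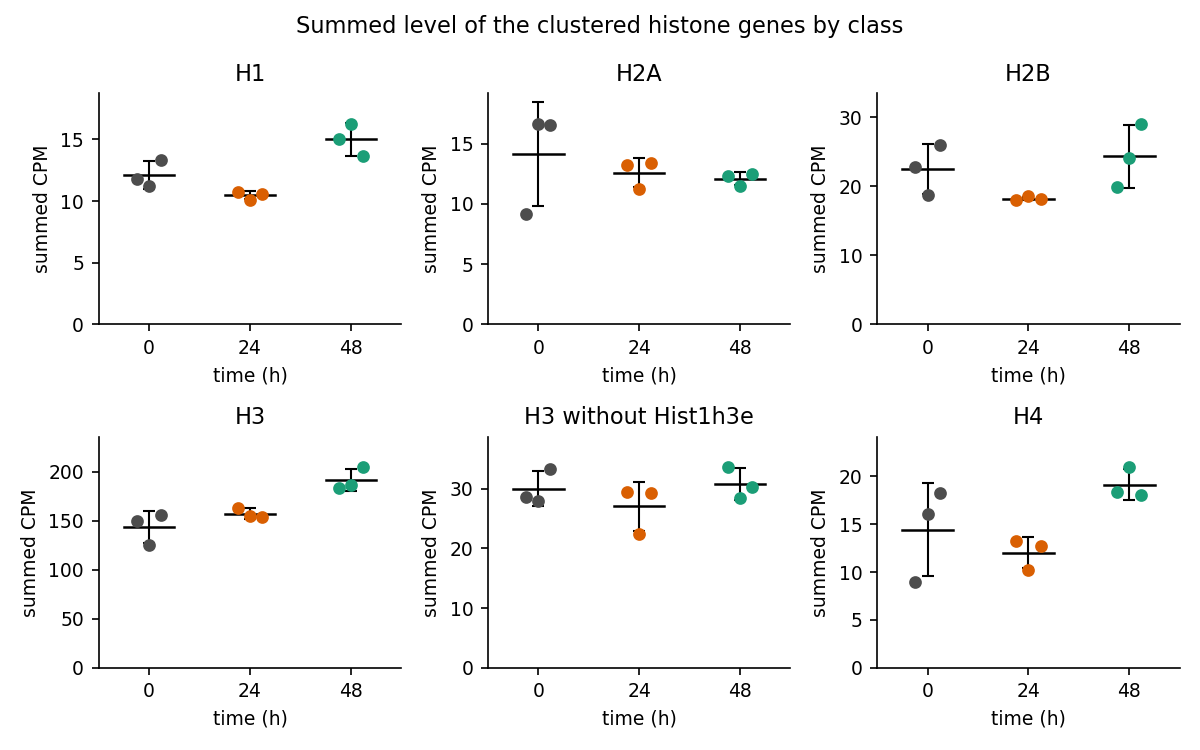
Summed CPM (vertical axis, from 0) of the histone genes of each class at 0, 24 and 48 h, with H3 also shown without Hist1h3e. Points are libraries, lines are means and bars are SD (n = 3); the 3 libraries at 48 h were above all others for H1 and H3, and the times overlapped for H2A and for H3 without Hist1h3e.

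Differences between times were tested gene by gene with edgeR's quasi-likelihood test over all genes that passed the filter on low counts, with Benjamini-Hochberg adjustment, and a gene was called at an adjusted p of up to 0.05. 43, 45 and 40 histone genes passed the filter in the comparisons of 24 h with 0 h, 48 h with 0 h and 48 h with 24 h, 46 in at least 1 of them. 12 genes were called at least once, 6 of H4 and 2 each of H1, H2B and H3. The comparisons share their libraries in pairs and are not independent of each other. No H2A gene was called in any comparison, among 11 tested; at an unadjusted p under 0.05 in edgeR there was 1 (Hist1h2ad, at 24 h against 0 h), and DESeq2 called 1 (Hist1h2af, at 24 h against 0 h). Among the alternatives, Hist1h2ad was called lower at 24 h against 0 h with GC and length offsets (adjusted p = 0.0489, edgeR). Hist1h2ae was called lower without 0 h replicate 1 (adjusted p = 0.0043, edgeR) and Hist1h2ai higher without 0 h replicate 3 (adjusted p = 0.0414, edgeR) at 48 h against 0 h. Hist1h2af, which the filter removed, was called lower at 24 h against 0 h with no filter, and in both comparisons with 0 h without 0 h replicate 1. Exons of 19 of the 20 H2A genes were overlapped on the other strand by genes annotated as miRNA, and with every other overlapping gene included 9.91% to 100% of the exon length of these 19 genes was covered. 42 histone genes of other classes had no overlap at all, and the part of this in the calls was not tested.

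**Figure D2:**
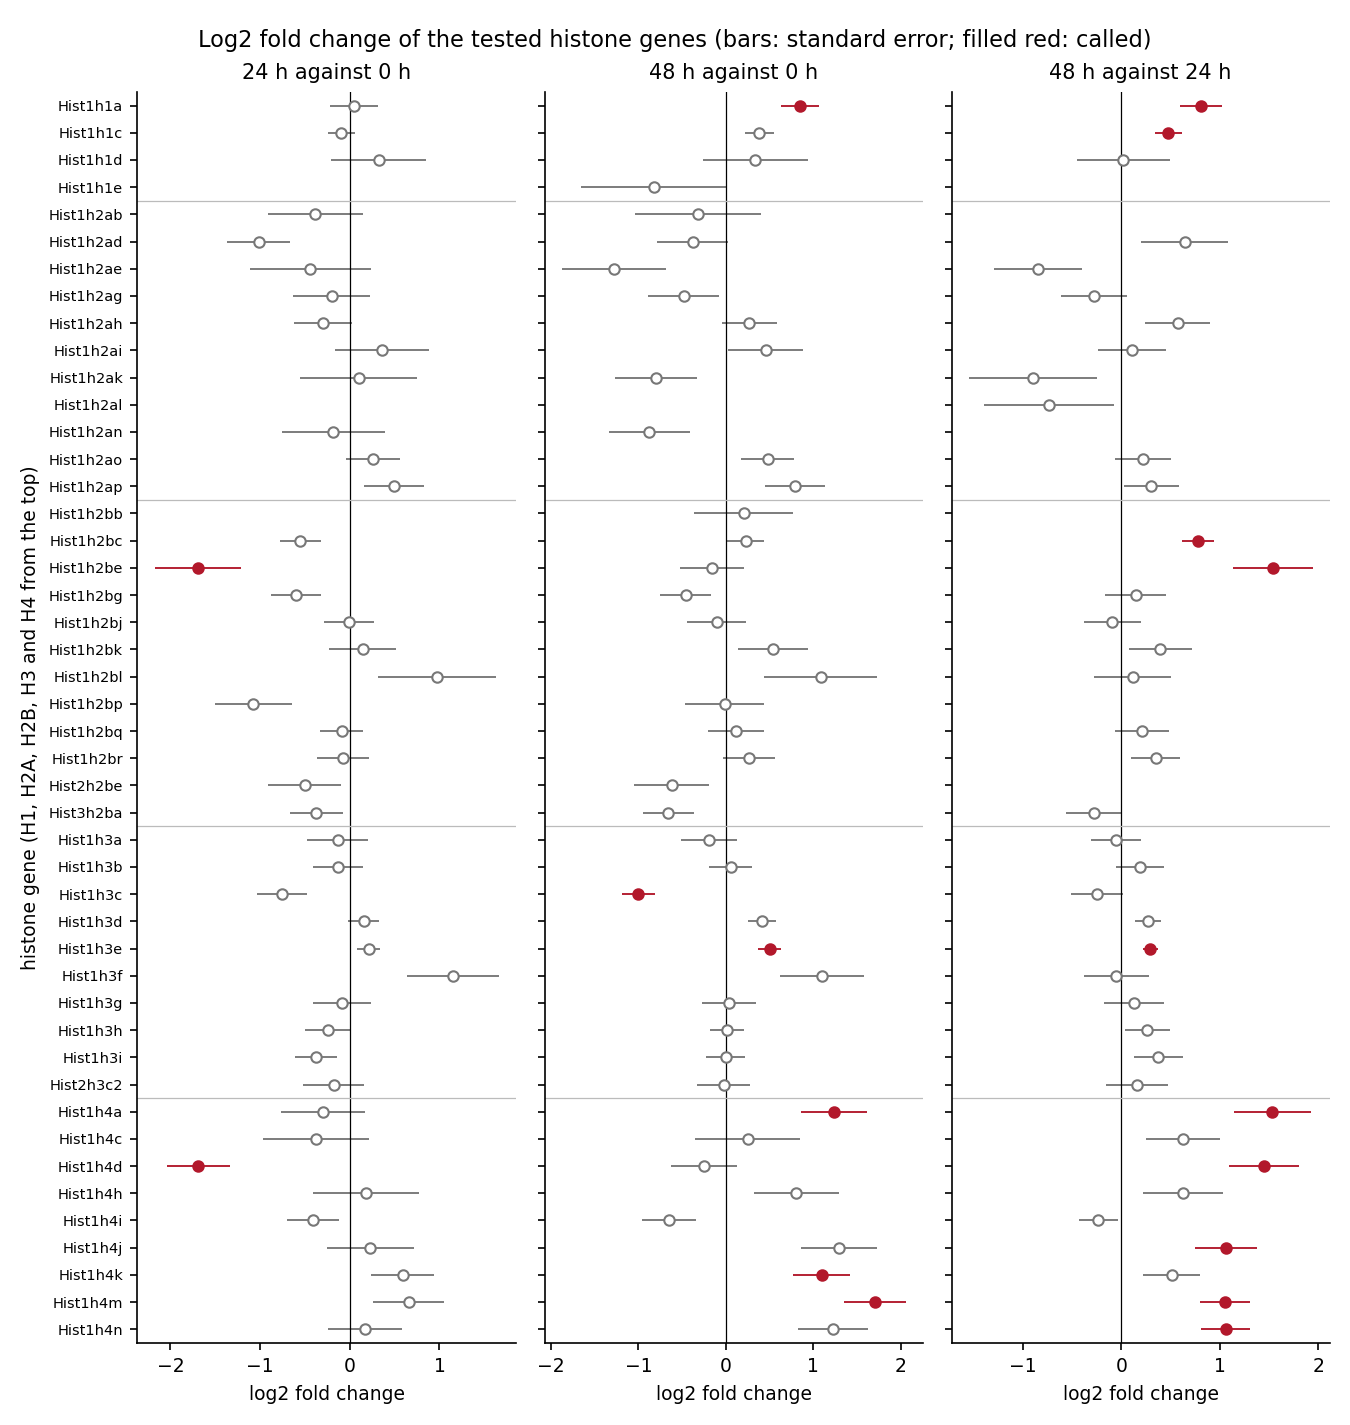
Log2 fold change (horizontal axes) of each tested histone gene in the 3 comparisons, with genes ordered by class from H1 at the top to H4 at the bottom. Bars are standard errors and filled red points are genes called; 2 lower genes stand out at 24 h, and all 10 genes called at 48 h against 24 h lie to the right of 0.

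At 24 h against 0 h, Hist1h4d and Hist1h2be fell and no histone gene rose. No gene was higher at an unadjusted p under 0.05 in edgeR or called higher by DESeq2, and 6 were lower at that unadjusted p. These 2 were 4.65% of the 43 tested, whereas 25.5% of all 17592 genes tested were called and 14.2% were called lower. The median log2 fold change was -0.13 over the histone genes and 0.01 over all genes, and 27 of the 43 values were negative. Hist1h4d, an H4 gene of the second block, had 26, 46 and 64 counts at 0 h, 16, 15 and 12 at 24 h, and 27, 66 and 33 at 48 h. All 24 h libraries were below all others, and the log2 fold change at 24 h was -1.69 (SE 0.35, adjusted p = 0.0112, edgeR). Hist1h2be, an H2B gene, had 28, 22 and 17 counts at 0 h, 4, 7 and 11 at 24 h, and 24, 21 and 22 at 48 h. Its 24 h libraries were also the lowest of all 9, with a log2 fold change of -1.70 (SE 0.48, adjusted p = 0.0377, edgeR). Part of its exons (11.2%) is shared with other annotated genes on the same strand. Hist1h2ad, an H2A gene, had 13, 20 and 20 counts at 0 h and 10, 10 and 7 at 24 h, and did not pass (log2 fold change -1.02, SE 0.35, adjusted p = 0.0737, edgeR).

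The number of calls at 24 h depended on single libraries. When each library was left out in turn, Hist1h4d stayed called in 5 of 6 fits and Hist1h2be in 1 of 6. Leaving out 24 h replicate 3 left 0 calls among the histone genes, leaving out 24 h replicate 1, 24 h replicate 2 or 0 h replicate 2 left 1, and leaving out 0 h replicate 3 gave 4. With no filter on low counts 4 genes were called, and with at least 10 counts required in every library 1 was.

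At 48 h against 0 h, 5 histone genes rose and Hist1h3c fell. These 6 were 13.3% of the 45 tested, against 31.6% of all 17755 genes tested, 13% higher and 18.5% lower. The median log2 fold change was 0.11 over the histone genes and 0.02 over all genes. The H4 genes had the highest median of the 5 classes, 1.10 over 9 tested, 3 of them called higher, and the H2A genes the lowest, -0.35 over 10. Hist1h4m had 6, 16 and 18 counts at 0 h, 26, 20 and 19 at 24 h, and 49, 52 and 40 at 48 h. Its CPM at 48 h was 2.28 ± 0.271 against 0.688 ± 0.277 at 0 h (SD, n = 3), with no overlap, and the log2 fold change was 1.70 (SE 0.35, adjusted p = 0.0098, edgeR). The whole of its annotated transcript lies in windows shared with other genes. Hist1h4a had 15, 10 and 14 counts at 0 h, 11, 6 and 17 at 24 h, and 23, 37 and 43 at 48 h, with a log2 fold change of 1.23 from 0 h to 48 h (SE 0.38, adjusted p = 0.0436, edgeR). Hist1h4k had 10, 22 and 19 counts at 0 h, 30, 18 and 32 at 24 h, and 29, 44 and 46 at 48 h, with a log2 fold change of 1.10 (SE 0.33, adjusted p = 0.0384, edgeR). For both, each 48 h library was above each 0 h library on the CPM scale.

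Hist1h1a, an H1 subtype gene, had 28, 44 and 46 counts at 0 h, 44, 31 and 52 at 24 h, and 69, 96 and 68 at 48 h. It rose by 48 h against 0 h with a log2 fold change of 0.85 (SE 0.22, adjusted p = 0.0248, edgeR), no window of its transcript was shared with another gene, and its 48 h libraries stood above the rest. Hist1h3e, which encodes the H3.2 form, was at 121, 97.5 and 123 CPM at 0 h, 134, 133 and 124 CPM at 24 h, and 150, 158 and 175 CPM at 48 h. Its libraries did not overlap between any 2 times, and at 48 h it was 1.42-fold above 0 h (log2 fold change 0.50, SE 0.13, adjusted p = 0.0233, edgeR). At 24 h its log2 fold change against 0 h was 0.21 (SE 0.12, adjusted p = 0.274, edgeR) and did not pass. Windows shared with other genes covered 99.6% of its longest transcript, and 57.7% lay in 150-base windows that were identical in another gene.

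Hist1h3c, which encodes the same H3.2 protein, went the other way. It was at 4.80, 5.75 and 5.63 CPM at 0 h, 3.29, 2.03 and 4.15 CPM at 24 h, and 2.88, 2.52 and 2.68 CPM at 48 h. All 0 h libraries were above all later ones, and it fell at 48 h with a log2 fold change of -1.0 (SE 0.19, adjusted p = 0.0063, edgeR). Windows shared with other genes covered 64.8% of its transcript. Hist1h3d, of the same group, was at 8.72, 7.24 and 8.66 CPM at 0 h, 10.2, 8.76 and 8.15 CPM at 24 h, and 11.8, 11.2 and 9.87 CPM at 48 h. All 48 h libraries were above all 0 h libraries, but the difference did not pass (log2 fold change 0.42, SE 0.16, adjusted p = 0.0878, edgeR). Hist1h4i, the H4 gene with the highest mean, had 54, 138 and 134 counts at 0 h, 92, 78 and 80 at 24 h, and 77, 91 and 55 at 48 h, and the times overlapped. Its log2 fold change was -0.65 (SE 0.31, adjusted p = 0.162, edgeR), on the other side of 0 from Hist1h4a, Hist1h4k and Hist1h4m.

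Of these 6 calls, those of Hist1h3c and Hist1h4m were made in every alternative that tested them and without each library in turn. Leaving out any 48 h replicate, or 0 h replicate 2, left 2 calls among the histone genes in each case. Scaling by library size alone raised the count to 9, and leaving out 0 h replicate 3 did too.

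**Figure D3:**
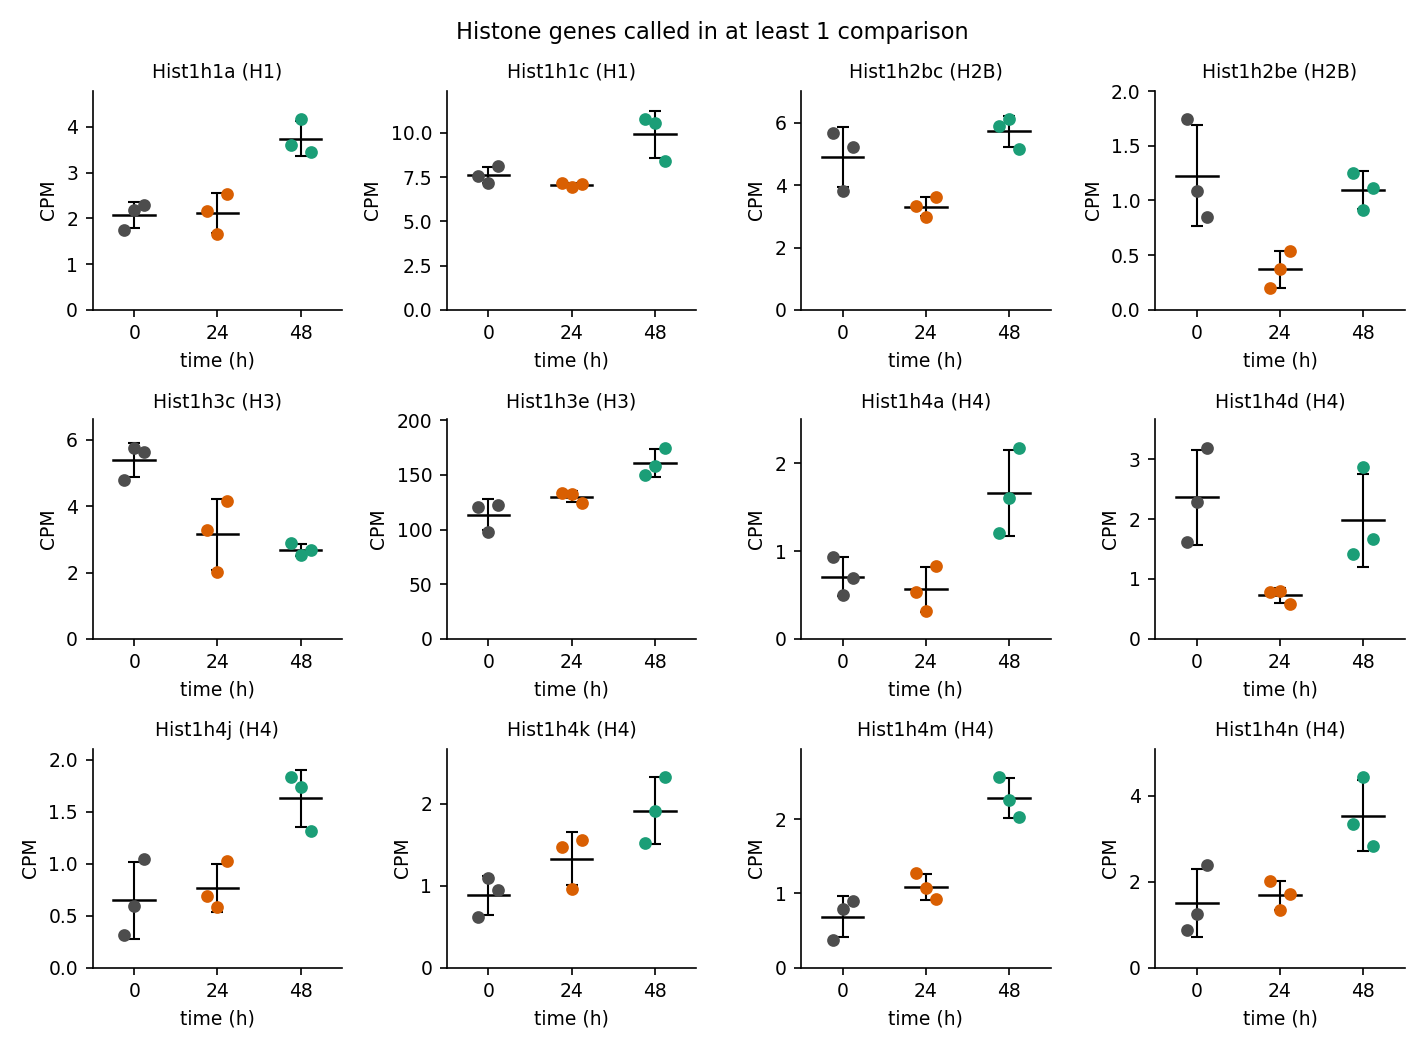
CPM (vertical axes, from 0) of the 12 histone genes called in at least 1 comparison, at 0, 24 and 48 h. Points are libraries, lines are means and bars are SD (n = 3); Hist1h4d and Hist1h2be are lowest at 24 h, Hist1h3c is highest at 0 h, and the other genes have their highest mean at 48 h.

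At 48 h against 24 h, 10 histone genes rose and none fell, and at an unadjusted p under 0.05 in edgeR there were the same 10 and no lower gene. DESeq2 called 8 higher and none lower. These 10 were 25.0% of the 40 tested, against 21.3% of all 17499 genes tested in either direction, 8.61% higher and 12.7% lower. The median log2 fold change was 0.26 over the histone genes and 0.00 over all genes, and 30 of the 40 values were positive. Of the 40 tested genes, these 10 were the ones whose 48 h libraries all lay above their 24 h libraries, and no tested gene had the reverse; over all genes tested 18.6% had the first pattern and 21% the second. 5 of the 9 H4 genes tested rose, 2 of 3 H1 genes, 2 of 9 H2B genes, 1 of 10 H3 genes and none of 9 H2A genes. The 28 genes not tested had too few counts for the filter.

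The H4 genes that rose were Hist1h4a, Hist1h4d, Hist1h4j, Hist1h4m and Hist1h4n. Hist1h4n had 14, 25 and 48 counts at 0 h, 41, 25 and 35 at 24 h, and 64, 102 and 56 at 48 h, with a log2 fold change of 1.06 (SE 0.25, adjusted p = 0.0178, edgeR) between the later times. Hist1h4j had 5, 12 and 21, then 14, 11 and 21, then 35, 40 and 26 counts, with a log2 fold change of 1.07 (SE 0.31, adjusted p = 0.0396, edgeR). The log2 fold change was 1.05 for Hist1h4m, 1.53 for Hist1h4a and 1.45 for Hist1h4d, with adjusted p of 0.0179, 0.0231 and 0.0188 (edgeR). Hist1h4d at 48 h overlapped with its 0 h libraries (log2 fold change of 48 h against 0 h -0.25, SE 0.38, adjusted p = 0.67, edgeR). Hist1h4i again stood apart from these, at -0.24 (SE 0.20, adjusted p = 0.42, edgeR).

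In the linker class, Hist1h1c was at 7.54, 7.19 and 8.12 CPM at 0 h, 7.16, 6.95 and 7.13 CPM at 24 h, and 10.8, 10.6 and 8.40 CPM at 48 h, a log2 fold change of 0.47 between the later times (SE 0.14, adjusted p = 0.0361, edgeR). Its log2 fold change of 48 h against 0 h was 0.38 (SE 0.17, adjusted p = 0.127, edgeR). Hist1h1a rose by 0.81 on the log2 scale (SE 0.22, adjusted p = 0.0283, edgeR). Among the H2B genes, Hist1h2bc was at 5.67, 3.82 and 5.23 CPM at 0 h, 3.34, 2.99 and 3.61 CPM at 24 h, and 5.91, 6.12 and 5.16 CPM at 48 h, with a log2 fold change of 0.78 between the later times (SE 0.17, adjusted p = 0.0109, edgeR). Its 48 h libraries overlapped those of 0 h, and 48 h against 0 h gave 0.23 (SE 0.21, adjusted p = 0.475, edgeR). Hist1h2be rose by 1.53 (SE 0.40, adjusted p = 0.0263, edgeR), and its 48 h libraries also overlapped those of 0 h (log2 fold change -0.16, SE 0.36). Hist1h3e rose by 0.29 (SE 0.07, adjusted p = 0.0204, edgeR), the smallest of the 10 changes.

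The size of this set changed with the libraries that entered the fit. The biological coefficient of variation over all genes was 0.115 among the 24 h and 48 h libraries, and 0.220 and 0.228 in the fits that held the 0 h libraries. When all 9 libraries shared 1 estimate, Hist1h2bc was the only histone gene called at 48 h against 24 h, and 5.71% of all genes were called. Leaving out 24 h replicate 1 or 24 h replicate 2 left 3 calls, leaving out 48 h replicate 1 or 48 h replicate 3 left 5, and leaving out 48 h replicate 2 left 6. Hist1h2bc was called in each of these.

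The 4 genes of the H3.1 form were not called in any comparison, none had an unadjusted p under 0.05 in edgeR, and DESeq2 called none. Their summed level was 11.2 ± 1.52 CPM at 0 h, 9.38 ± 2.08 CPM at 24 h and 11.0 ± 1.33 CPM at 48 h, with overlapping libraries. From 0 h to 48 h their log2 fold changes were -0.19 (SE 0.32) for Hist1h3a, 0.03 (SE 0.31) for Hist1h3g, 0.02 (SE 0.20) for Hist1h3h and 0.00 (SE 0.23) for Hist1h3i. Hist1h3h was their highest, with 63, 85 and 91 counts at 0 h, 84, 46 and 82 at 24 h, and 95, 86 and 82 at 48 h. Hist1h3i had 56, 73 and 76, then 56, 40 and 70, then 75, 63 and 84 counts. Hist1h3a had 26, 43 and 67, then 39, 33 and 56, then 35, 44 and 49 counts, and Hist1h3g between 14 and 26 in every library. The H3.2 group without Hist1h3e, at 18.7 ± 1.70, 17.7 ± 2.22 and 19.7 ± 1.78 CPM, also overlapped between times.

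Testis-specific forms were near the limit of detection. Hist1h1t, the H1 form of spermatocytes, had 8, 6 and 19 counts at 0 h, 5, 0 and 0 at 24 h, and 0, 11 and 0 at 48 h. Hist1h2aa and Hist1h2ba, which encode the testis forms of H2A and H2B, had 0 to 8 and 1 to 9 counts per library. A count of 0 allows up to 3 counts, or 0.130 to 0.187 CPM in these libraries, and none of the 3 genes passed the filter, so no difference in them was tested. The 24 h libraries of Hist1h1t all lay below its 0 h libraries on the CPM scale, and its 48 h libraries overlapped with those of 0 h. Hist1h2af, also not tested, had 76 counts in 0 h replicate 2 and at most 14 in the other libraries.

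The calls were also counted by the position of the gene and the annotated end of its transcript. At 48 h against 24 h, 3 of 18 tested genes of the first block on chromosome 13 and 7 of 19 of the second rose. By annotated end, 5 of 14 tested genes whose transcripts ran past the stem-loop rose, 2 of 12 of those that ended near it, 1 of 8 of those that ended at or near the stop codon and 2 of 6 of the rest. These are counts without a test. In that comparison 25% of the 40 tested histone genes and 8.61% of all genes tested were called higher.

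Genes that act on histone mRNA and histones were read beside the clustered genes. The stem-loop processing list holds 26 genes, all of them tested. Most are of the U7 complex, the cleavage factors, the cap-binding proteins and SLBP. Genes outside these groups, such as Npat, Eri1, Lsm1, Upf1, Mier1 and Ctif, were also placed in it. At 48 h against 24 h 3 of them (11.5%) fell, near the 12.7% of all genes tested that were called lower, with a list median of -0.02 on the log2 scale against 0.00 over all genes. Slbp, which binds the stem-loop, fell by 0.29 (SE 0.06, adjusted p = 0.0103, edgeR), and Sympk and Cpsf1, both of the cleavage machinery, fell by 0.28 and 0.25. At 48 h against 0 h Slbp, Cpsf3, Sympk, Ncbp1 and Ctif fell (19.2%, against 18.5% of all genes) and Cpsf2 rose, with a list median of -0.09. When libraries were scaled by size alone the median was 0.02, and 2 genes were called lower and 1 higher. At 24 h against 0 h Snrpe, Ncbp1 and Ctif fell (11.5%, against 14.2% of all genes), with a list median of -0.07. Size alone turned the balance of this list, with a median of 0.05 and 4 genes called higher and 2 lower. Size alone raised the median of all genes to 0.12 and 0.13 in the comparisons with 0 h.

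Many of the DNA replication genes, whose products work in S phase, fell by 48 h. Of 30, 13 (43.3%) fell at 48 h against 0 h, where 18.5% of all genes were called lower, and 11 (36.7%) fell at 48 h against 24 h, where 12.7% were. The list medians were -0.25 and -0.17. By library size alone 10 were called lower and 1 higher at 48 h against 0 h, with a median of -0.14. Ccne1 (cyclin E1) fell by 1.05 from 0 h to 48 h and by 0.51 from 24 h to 48 h on the log2 scale (SE 0.10 and 0.07), Pcna (the replication clamp) by 0.46 and 0.26, and E2f2 by 1.41 and 0.99. At 24 h against 0 h, 6 (20%, against 14.2% of all genes) fell, among them Rrm2, by 0.84, and Uhrf1, by 0.79, and Lig1 rose by 0.52. The list median there was -0.10, and by library size alone it was 0.01, with 5 called lower and 3 higher. The summed level of the list was 7185 ± 489 CPM at 0 h, 6436 ± 79.6 CPM at 24 h and 5634 ± 132 CPM at 48 h. The mean sums of H1, H3 and H4 were highest at 48 h. For H4, and for H3 without Hist1h3e, the 48 h libraries overlapped those of 0 h.

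Genes for histone variants outside the clusters are mostly expressed through the whole cell cycle with poly(A)-tailed mRNAs. Per length, in FPKM computed from the counts, H3f3b (an H3.3 gene) stood at 183, 133 and 115 at 0, 24 and 48 h, and Hist1h3e at 136, 156 and 192; the next clustered gene, Hist1h3h, averaged 9.76 over all libraries. H3f3b fell in all 3 comparisons, by 0.44, 0.67 and 0.22 on the log2 scale. Of the 14 variant genes tested at 48 h against 0 h, 5 (35.7%, against 18.5% of all genes) fell (H3f3b, H2afz, H2afy, H2afy2 and H1f0) and H2bfm rose. At 48 h against 24 h, 6 of 14 (42.9%, against 12.7% of all genes) fell, among them H1f0 by 0.62, H1fx by 0.86 and H2afx by 0.49. At 24 h against 0 h, 3 of 13 (23.1%, against 14.2% of all genes) fell. The list medians were -0.34 at 48 h against 0 h and -0.37 at 48 h against 24 h.

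Histone chaperones carry histones to DNA. Of 23 genes, 2 rose and 3 (13%) fell at 24 h against 0 h, 1 rose and 5 (21.7%) fell at 48 h against 0 h, and 3 (13%) fell at 48 h against 24 h, shares near the 14.2%, 18.5% and 12.7% of all genes called lower. The list medians were -0.02, -0.05 and -0.06. Library size alone turned the balance against 0 h, with 3 called higher and 0 lower at 24 h (median 0.09) and 4 higher and 1 lower at 48 h (median 0.06). Asf1b, a chaperone of H3 and H4 in S phase, fell by 0.38 from 0 h to 48 h and by 0.30 from 24 h to 48 h, and Anp32e, which acts on H2A.Z, fell in each comparison by 0.45, 0.71 and 0.26. Mcm2 stands in this list and in the list of DNA replication genes.

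2 further measures were taken beside the histone levels. The first was RNA that has no poly(A) tail and that poly-T beads should not catch. Of 16 such genes, 3 had no count, and only Rn7sk and Rpph1 passed the filter. Rn7sk (7SK RNA) had 90, 34 and 269 counts at 0 h, 172, 126 and 204 at 24 h, and 922, 1123 and 1017 at 48 h. It rose by 2.84 against 0 h (SE 0.61, adjusted p = 0.0109, edgeR) and by 2.55 against 24 h (SE 0.12, adjusted p = 2e-05, edgeR). Rpph1, the RNA of RNase P, had 4, 10 and 26, then 16, 6 and 30, then 54, 70 and 43 counts, and rose by 1.94 and 1.62. The summed level of the list was 3.32 to 16.3 CPM at 0 h, 8.71 to 13 CPM at 24 h and 52.6 to 54.8 CPM at 48 h. Without Rn7sk it was 0.934 to 2.89, 1.98 to 3.03 and 3.39 to 4.34 CPM, and Rn7s1, Rn7s2 and Terc had at most 13 counts in any library. The part of untailed RNA carried into the libraries in the higher histone levels at 48 h was not tested.

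The second was RNA of other cell types. Of all genes tested, 11.4%, 13% and 8.61% were called higher and 14.2%, 18.5% and 12.7% lower at 24 h against 0 h, 48 h against 0 h and 48 h against 24 h. All 10 germ cell genes were tested, none was at 0, and their sum was 1998 to 3139 CPM at 0 h, 2396 to 2645 CPM at 24 h and 2388 to 2630 CPM at 48 h. At 24 h against 0 h, 1 of them was called higher and 2 (20%) lower. At 48 h, 3 (30%) were called lower against 0 h and 2 (20%) against 24 h, and 0 higher. The 12 fibroblast and stroma markers summed to 865 to 1035 CPM at 0 h, 3027 to 3484 CPM at 24 h and 4116 to 4471 CPM at 48 h. Of these, 8 and 9 were called higher at 24 h and 48 h against 0 h, and 9 at 48 h against 24 h. In each of the 3 comparisons 1 was called lower. The 14 markers of Sertoli, myoid and Leydig cells summed to 31.5 to 35.6, 176 to 263 and 288 to 355 CPM. Of 12 tested, 10 and 11 were called higher against 0 h and 4 at 48 h against 24 h. In this list 1 was called lower at 24 h against 0 h, and 1 at 48 h against 24 h. The 10 endothelial and macrophage markers summed to 87.2 to 94.4, 37.9 to 41.9 and 26.4 to 31.5 CPM. Of 7 tested, 2 were called higher and 4 lower at 24 h against 0 h, and 1 higher and 4 lower at 48 h against 0 h. At 48 h against 24 h, 3 were called lower and 0 higher. None of these markers was at 0 in all libraries. In bulk RNA a change in the share of cells of a type and a change in RNA per cell cannot be told apart, and the part of these cells in the histone differences was not tested.

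**Figure D4:**
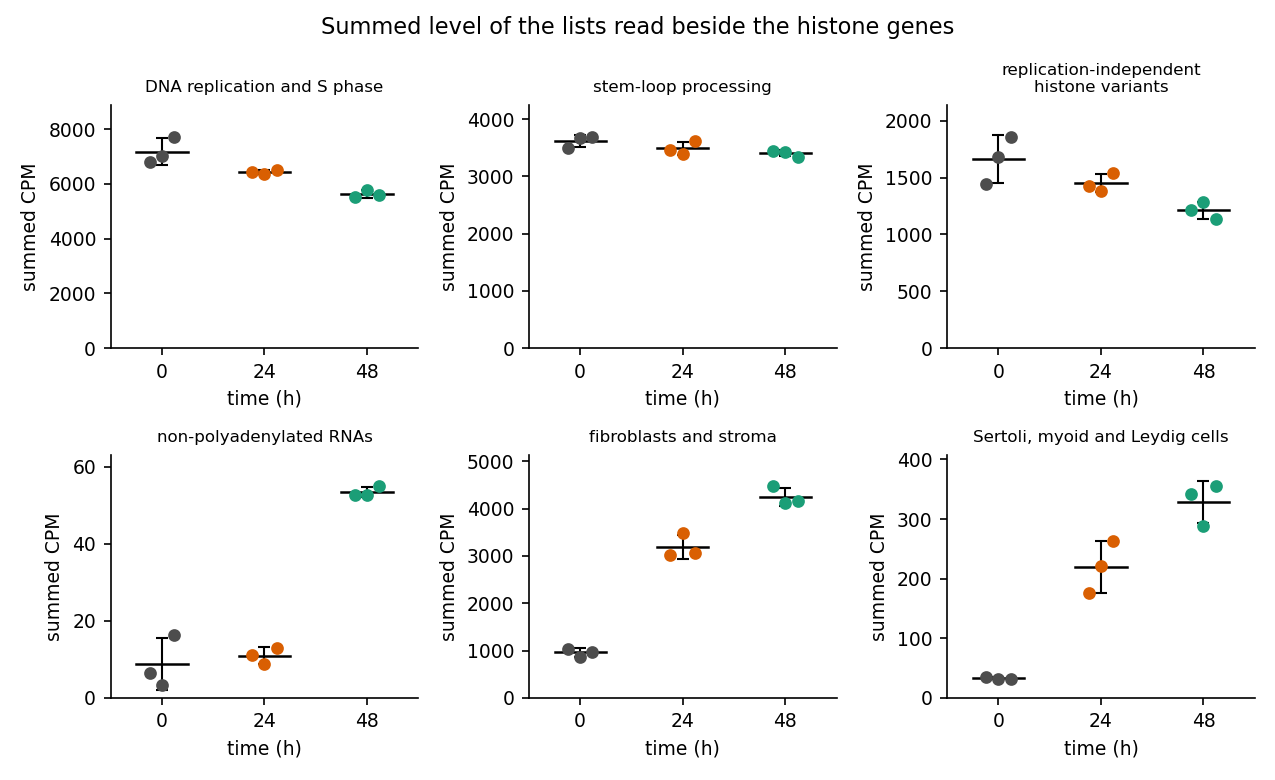
Summed CPM (vertical axes, from 0) at 0, 24 and 48 h of 6 gene lists read beside the histone genes. Points are libraries, lines are means and bars are SD (n = 3); the DNA replication list is lowest at 48 h, and the untailed RNAs and both lists of somatic cell markers are highest at 48 h.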

How the data were processed

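Libraries of EGFP-SSCs at 0, 24 and 48 h (3 each) were made by the authors from RNA caught on poly-T beads. The deposited values are raw read counts per gene, which the submitters' processing notes tie to fastp, HISAT2, featureCounts and the GRCm38 build; versions and the settings for strand and multiple matches are not given in the sources used here. Gene names came from GENCODE M21, which matched 45229 of 46078 IDs (the rest held at most 0.121% of the counts). The histone genes and lists were chosen with earlier results of these data known.

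Each pair of times was fitted with edgeR 4.0.16 (filterByExpr, TMM, glmQLFit and glmQLFTest, R 4.3.3) on its 6 libraries, over all genes, with Benjamini-Hochberg adjustment at 0.05. CPM used TMM-scaled library sizes, and FPKM divided CPM by the length of the merged exons. Class sums are values without a test. No 2 replicates agreed within counting noise. On simulated counts, 172 of 200 changed genes were recovered at 24 h against 0 h, 162 at 48 h against 0 h and 177 at 48 h against 24 h. False calls were 8, 5 and 7. The simulation used genes of the whole table, the same dispersion for every gene, and changes larger than most of the histone genes showed. That dispersion was below the one estimated over all genes in both comparisons with 0 h, and above the one at 48 h against 24 h. The simulation therefore does not measure recovery for the low-count histone genes. Shared windows were found with BLAST 2.17.0 on GENCODE transcripts, and stem-loops and promoter motifs by pattern search. A count of 0 is read as up to 3 counts, for counting error only. Values of every library are given for genes that averaged 5 CPM or more at 1 time, the testis forms and the H3.1 genes. Of these, Hist1h2aa, Hist1h2ba and Hist1h3g are given by range only. The H3.1 genes were found by translating GENCODE coding sequences. The 3 largest rises and falls among called genes are also given by library. Other genes given in this way were chosen after their values were seen. Alternatives were DESeq2 1.42.0, other scaling, filters and fits, GC and length offsets, a fold over 1.3, and leaving out each library.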

Additional observations from a re-analysis of the deposited data

How the results depend on the processing

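The numbers of histone genes called were 2 (24 h against 0 h), 6 (48 h against 0 h) and 10 (48 h against 24 h). Without 1 library they ranged from 0 to 4, from 2 to 9 and from 3 to 7. For 24 h against 0 h the count was 4 with no filter, 1 with at least 10 counts in every library and 0 with the replicate number as a block. The block left 2 calls at 48 h against 0 h and 5 at 48 h against 24 h. Same-numbered libraries correlated at -0.28 to 0.20 in their deviations from the group means, and differently numbered ones at -0.39 to 0.38. With so few libraries this cannot decide whether same-numbered libraries shared a batch, which the labels do not give. All 9 libraries in 1 fit left 1 call at 48 h against 24 h. The other alternatives (DESeq2, DESeq2 size factors, library size alone, GC and length offsets, a fold over 1.3) kept each count within 1.5 times. Among calls at 48 h against 0 h, library size alone, all 9 libraries and the offsets each gave 8 higher, and no filter 3. Each fold change that was followed had been called in the fits above or under at least 1 alternative, a choice that favours large changes. None of them changed sign under any alternative. Library size alone gave 24 h sums of 10.8 CPM for H1, 18.9 CPM for H2B and 163 CPM for H3, beyond 1 SD of the values above. This scaling leaves out the TMM factors, which were 1.05, 1.04 and 1.01 in the 24 h libraries. Most histone genes had under 100 counts per library, which limits what can be called.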
